A study of Drosophila melanogaster with 4 samples.

Results

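The mRNA-seq library labelled siRpd3 was compared directly with the siMi-2 library, without the control in the ratio. Both come from OSCs, a cultured line of Drosophila ovarian somatic cells grown at 26 °C, 4 days after transfection with siRNA against Rpd3 or against Mi-2. The series holds 4 libraries of poly(A) RNA in all, the others being sipiwi and the control, which the labels name EGFP and which is called siGFP here. Each knockdown is 1 library of 1 cell line, so that no difference has a replicate check and no test between conditions was possible. The values deposited are FPKM (fragments mapped, scaled to transcript length and to the library total). Summed over its transcripts, a gene was kept at a mean of at least 1 FPKM over the 4 libraries, which 7952 of 16784 genes reached. The other 8832 genes, of which 3897 were at 0 in every library, were left out. Of 121 TEs, 100 had a mean of at least 0.1 FPKM, 21 fell below it, and 6 of those 21 were at 0 throughout. Ratios are log2((FPKM + 0.1) in the library labelled siRpd3 / (FPKM + 0.1) in siMi-2), a scale that understates the differences of low genes. From the steps between FPKM values, 32638866 mapped reads were recovered for the library labelled siRpd3 and 36143523 for siMi-2. The other libraries had 38060116 (sipiwi) and 36702889 (siGFP). Intervals are exact 95% Clopper-Pearson intervals on these reads, counted as pairs. They compare 2 libraries and cover counting error only, since PCR copies are not independent molecules.

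Rpd3, listed under the symbol HDAC1, is a class I histone deacetylase that removes acetyl groups from histone tails and works in several repressor complexes. Mi-2 is an ATP-driven nucleosome remodeler. Both can belong to the NuRD complex of Drosophila (dNuRD), and Mi-2 also pairs with the zinc-finger protein MEP-1 in a complex without Rpd3, called dMec. In ovarian somatic cells, piRNAs guide the Piwi protein to nascent TE transcripts, and the chromatin at these copies is silenced. Setting the 2 libraries side by side shows which RNAs differ between the library labelled for the deacetylase and the library labelled for the remodeler.

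As deposited, RNA of the deacetylase itself was higher, not lower, in the library labelled siRpd3 than in siMi-2. HDAC1 (chromosome 3L of dm6, 4626734 to 4629467, plus strand) stood at 104 FPKM there (7213 reads) and at 54.7 FPKM in siMi-2 (4203 reads). It was at 109 FPKM in sipiwi and 71.3 FPKM in siGFP, so that the siMi-2 library held the lowest value of the 4. The log2 ratio was 0.93 (interval 0.85 to 1.0), and 0.23 once set against the 200 genes closest to it in transcript length. It was positive under every scaling tried, from 0.22 when the median genes were set equal to 2.25 when RpL32 was. As deposited, the label is therefore not borne out by the RNA it names. The scalings were tried on the ratio to siMi-2 only, not on HDAC1 against siGFP. The median gene was at 24.1 FPKM in the library labelled siRpd3 and 13.2 FPKM in siGFP, so that comparison depends on scaling. Every direction given here is that of the library so labelled, without a measured fall of Rpd3 RNA in the deposited values. An mRNA level does not measure the protein, which the study followed separately after each siRNA by western blot.

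Mi-2 (3L, 19882051 to 19910215, minus strand) had 83.6 FPKM in the library labelled siRpd3, against 5.67 FPKM in siMi-2. Its levels in sipiwi and siGFP were 69.3 and 34.4 FPKM. The siMi-2 library was thus the lowest of the 4 for the RNA it targets, with a log2 ratio of 3.86 (interval 3.75 to 3.97) and rank 22 of 7952 genes. The piwi gene (2L, 10982205 to 10987420, minus strand), which neither siRNA targets, had 84.6 FPKM in the library labelled siRpd3 and 104 FPKM in siMi-2, a log2 ratio of -0.29 (interval -0.35 to -0.23). Its sign was positive when the libraries were scaled to RpL32.

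Markers of the labelled cell type were present in both libraries. The somatic transcription factor tj was at 135 FPKM in the library labelled siRpd3 and 110 FPKM in siMi-2. In the same order, eya was at 73.8 and 53.9 FPKM, zfh1 at 13.8 and 9.23 FPKM and Fas3 at 49.4 and 4.51 FPKM. The marker hth was, however, at or near 0. The germ cell genes osk and zpg had at most 4 reads in either library, and vas had 0.43 FPKM in the library labelled siRpd3 against 2.66 FPKM in siMi-2. Of the same set, bam (148 and 224 reads) and bgcn (248 and 284 reads) were detected in the library labelled siRpd3 and in siMi-2. The hemocyte markers Hml, NimC1 and eater had at most 2 reads in either library. The hemocyte transcription factor srp, however, was at 10.4 FPKM in the library labelled siRpd3 and 1.91 FPKM in siMi-2, and Pxn at 4.59 and 1.42 FPKM. Of the neuronal markers, elav was at 3.01 and 1.71 FPKM in the same order. The others, nSyb, Syt1, brp and nrv3, had at most 41 reads in either library. Of the glial markers, moody was at 13.7 and 5.95 FPKM, with the glial regulator repo under 0.2 FPKM in both. Of the muscle markers, Mhc had 552 reads in the library labelled siRpd3 and 1210 in siMi-2, and Mlc2 had 513 and 370 reads. The muscle markers Act88F, wupA and up had at most 7 reads in either library.

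Of the 7952 genes, 4323 lay within 2-fold between the 2 libraries. More than 2-fold higher in the library labelled siRpd3 were 2767 genes (34.8%), and more than 2-fold lower were 862 (10.8%). The median log2 ratio of all genes was 0.54 (quartiles -0.32 and 1.3), so a gene's position is also given relative to that median. Beyond 4-fold there were 637 higher and 299 lower genes. Beyond 16-fold the balance turned, with 18 higher and 61 lower. The counting interval lay above 0 for 4765 genes and below 0 for 2222. FPKM divides by a library total, and another scaling adds nearly the same amount to every ratio. That amount was -0.70 with scaling to the median gene of each library, -0.32 with ribosomal protein reads left out of the totals and 1.32 with scaling to RpL32. The counts moved with it, to 1112 higher and 2020 lower genes with the median gene and to 5942 and 237 with RpL32.

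The ratio followed transcript length. For 609 genes with transcripts below 600 nt the median log2 ratio was -0.63, with 8.87% more than 2-fold higher and 35.5% more than 2-fold lower. It was -0.21 from 600 nt, 0.30 from 1000 nt, 0.85 from 2000 nt and 1.28 from 3000 nt. For 555 genes of at least 5000 nt it was 1.64, with 74.4% higher and 1.44% lower. Across the 7952 genes, which are not independent and share both libraries, the Spearman correlation of ratio and length was 0.52. In the class of at least 5000 nt the median level was 10.6 FPKM in the library labelled siRpd3, against 3.27 FPKM in siMi-2, 3.52 FPKM in sipiwi and 2.37 FPKM in siGFP. Below 600 nt it was 9.98 FPKM in the library labelled siRpd3, against 17.5 FPKM in siMi-2, 11.8 FPKM in sipiwi and 10.4 FPKM in siGFP. The siRpd3-labelled library thus stood apart from the other 3 for long transcripts, and siMi-2 for the shortest. Genes with more than 10 exons, whose median length was 4587 nt, had a median ratio of 1.52, against -0.09 for genes with 1 exon. Against the 200 genes closest in length these medians were 0.11 and -0.12. Whether the trend arose in the cells, in the RNA or in library preparation was not tested.

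**Figure D1:**
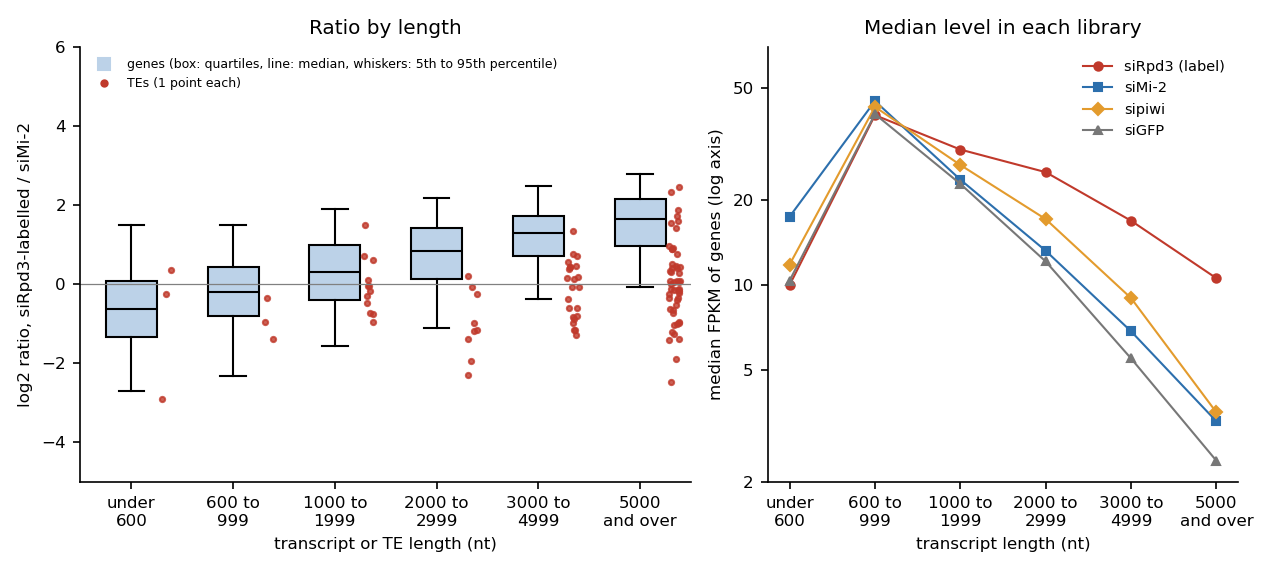
Left, log2 ratio of the library labelled siRpd3 over siMi-2 by transcript length, with boxes for genes and 1 point for each of 100 TEs. Right, median FPKM of genes in each length class on a log axis, 1 line per library. The gene median climbs from -0.63 below 600 nt to 1.64 at 5000 nt and over, while TEs of that length lie around 0 (median 0.02).

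With each gene set against the 200 genes closest to it in length, 991 genes (12.5%) were more than 2-fold higher and 1263 (15.9%) more than 2-fold lower in the library labelled siRpd3. This ratio is called relative below, and it is given for lists and where it matters to a single gene. The position of the other 2 libraries differed between the higher and the lower genes. Among the 2767 higher genes, the library labelled siRpd3 held the highest of the 4 values for 2623, and siMi-2 the lowest for 1184. Among the 862 lower genes, siRpd3 was lowest for 558 and siMi-2 highest for 656. In 83.5% of the higher genes, and in 49.5% of the lower genes, it was the siRpd3-labelled value that lay farther from the mean of siGFP and sipiwi, against 67.3% of all genes. Both sets were picked by the ratio itself, which favours extreme values of the siRpd3-labelled or siMi-2 library in them.

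Several of the genes highest in the library labelled siRpd3 were near 0 in the other libraries. Such genes passed the minimum only through that library. ninaE, which encodes the major rhodopsin of photoreceptors, had 491 reads there and 0 in siMi-2, with 0 in sipiwi and 2 in siGFP. Ggamma30A, a G protein subunit of phototransduction, had 7.73 FPKM in the library labelled siRpd3, against 0.039 FPKM in siMi-2 (525 and 8 reads), a log2 ratio of 5.81 (interval 5.26 to 6.16, relative 5.82). Its levels in sipiwi and siGFP were 0.60 and 0.22 FPKM. Both genes of the visual cascade were therefore high in a single library. robo2, a receptor for the axon guidance cue Slit, had 4.24 FPKM in the library labelled siRpd3 and 0.071 FPKM in siMi-2, with a log2 ratio of 4.66 (interval 4.16 to 5.07, relative 3.03). It was below 0.05 FPKM in the other libraries.

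CG31642 and CG3568 were low in siMi-2 as well as high under the siRpd3 label. CG31642 had 32.9 FPKM in the library labelled siRpd3, 0.51 FPKM in siMi-2, 5.73 FPKM in sipiwi and 4.89 FPKM in siGFP, and its log2 ratio was 5.76 (interval 5.18 to 6.36, relative 5.33). CG3568 had 21.2, 0.52, 5.57 and 3.75 FPKM in the same order, a log2 ratio of 5.09 (interval 4.47 to 5.75, relative 4.56). The siMi-2 library was the lowest of the 4 for both. comt, which encodes the NSF ATPase that recycles SNARE complexes, had 8.24 FPKM in the library labelled siRpd3, against 0.27 FPKM in siMi-2, and 23.4 and 24.9 FPKM in sipiwi and siGFP. Its ratio of 4.49 (interval 3.91 to 5.06, relative 3.34) thus stood on a low siMi-2 value, with the siRpd3-labelled library also below sipiwi and siGFP. CG17104 and CG15056 had 338 and 289 reads under the siRpd3 label and 4 reads each in siMi-2. CG17104 had 2 reads in sipiwi and 60 in siGFP, and CG15056 had 0 and 2. The non-coding lncRNA:CR45234 and lncRNA:CR44719 had 214 and 71 reads under the siRpd3 label, against 4 and 2 reads in siMi-2. Both were detected in sipiwi (149 and 72 reads) and had 0 reads in siGFP. No fold is given for these, because siMi-2 was at or below 6 reads, or 3 pairs.

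The genes lowest in the library labelled siRpd3 had their highest value of the 4 libraries in siMi-2. CG9427 had 0.32 FPKM under the siRpd3 label and 77.5 FPKM in siMi-2 (8 and 2261 reads), and 0.062 and 0.064 FPKM in sipiwi and siGFP. Its log2 ratio was -7.55 (interval -8.71 to -6.41). Srg3 had 0.31 FPKM under the siRpd3 label, 68.6 FPKM in siMi-2, 1.06 FPKM in sipiwi and 2.37 FPKM in siGFP, and CG15211 had 0.37, 73.2, 0.56 and 0.41 FPKM in the same order. Their log2 ratios were -7.38 and -7.30. CG1648, the most abundant of the 10, had 3.07 FPKM in the library labelled siRpd3 and 196 FPKM in siMi-2, with 3.23 and 2.41 FPKM in sipiwi and siGFP, a log2 ratio of -5.95 (interval -6.35 to -5.57). gnu, a regulator of the cell cycle in early embryos, had 0.33 FPKM under the siRpd3 label and 37.5 FPKM in siMi-2. For each of these 5 genes siMi-2 was the only library above 5 FPKM.

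The rest of the 10 lowest genes had few or no reads under the siRpd3 label. obst-E, which encodes a chitin-binding protein of the larval cuticle, had 0 reads in the library labelled siRpd3 and 640 reads (17.8 FPKM) in siMi-2. Jhbp4, named for juvenile hormone binding, had 0 and 316 reads. CG16799 and CG13217 had 2 and 4 reads under the siRpd3 label, against 356 and 405 reads in siMi-2. CG31997 had 0.65 FPKM in the library labelled siRpd3 and 54.3 FPKM in siMi-2. Of the 61 genes more than 16-fold lower, siMi-2 exceeded both siGFP and sipiwi by more than 4-fold in 51, and the siRpd3-labelled library lay more than 4-fold below both in 8. Of the 18 genes more than 16-fold higher, the siRpd3-labelled library exceeded both by more than 4-fold in 11, and siMi-2 lay more than 4-fold below both in 4. These sets were picked by the ratio, and genes near 0 elsewhere passed the minimum only through the library where they were high. That a single library stood apart in them is therefore partly built in.

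**Figure D2:**
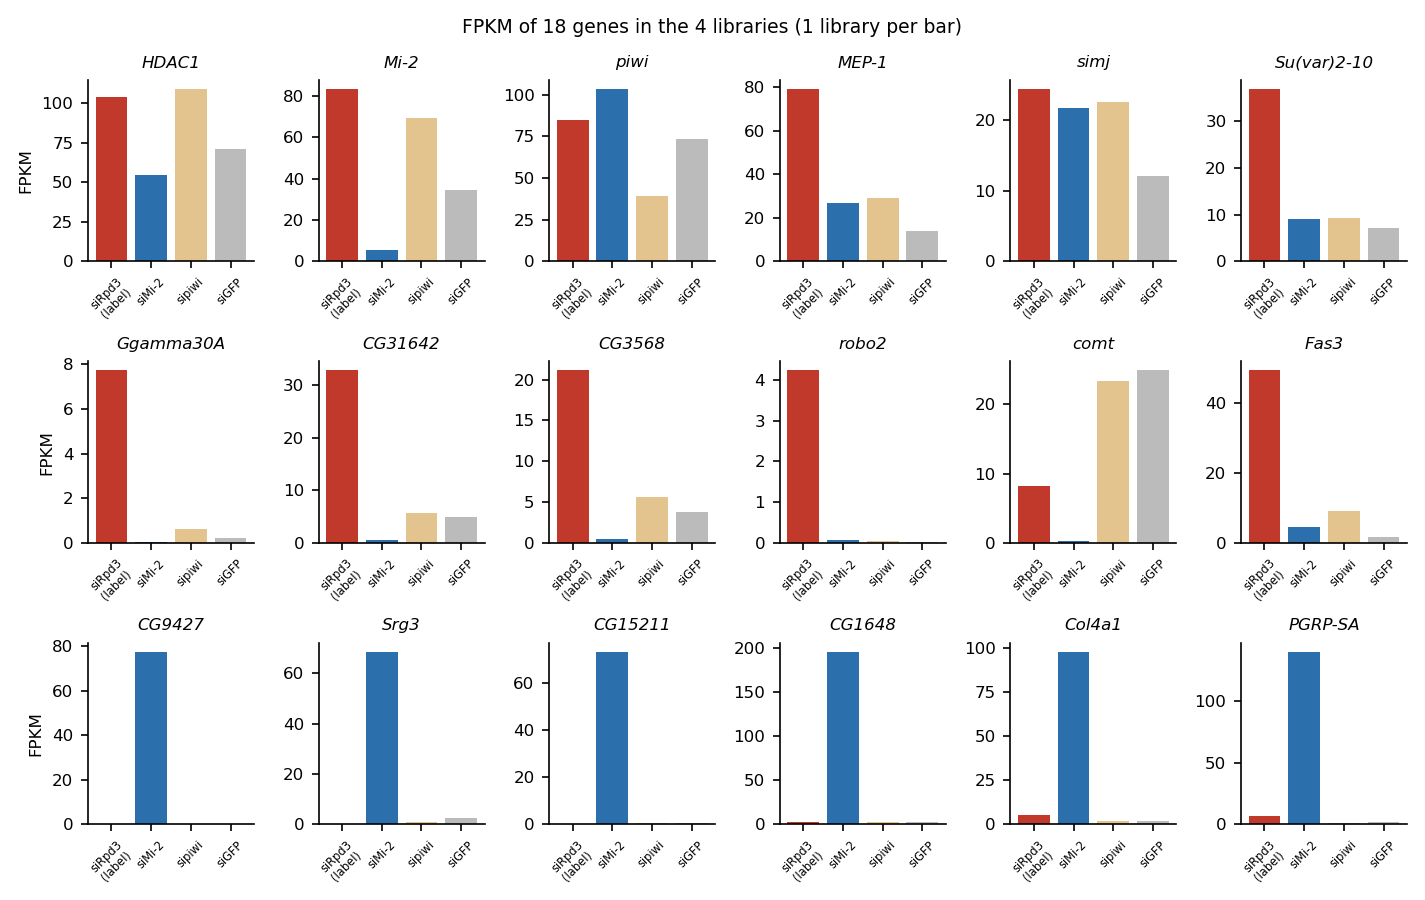
FPKM of 18 genes in the library labelled siRpd3, siMi-2, sipiwi and siGFP, 1 library per bar and a linear axis from 0 for each gene. HDAC1 is lowest in siMi-2, Ggamma30A and robo2 stand out under the siRpd3 label, and the 6 genes of the bottom row reach their highest value in siMi-2 (196 FPKM for CG1648).

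The 5 most abundant genes more than 2-fold higher in the library labelled siRpd3 were Hsp83, eEF1alpha1, RpS4, eEF2 and Arc1. Hsp83, the cytosolic chaperone that also serves piRNA loading, was at 3350 FPKM in the library labelled siRpd3 and 912 FPKM in siMi-2, and at 1303 and 940.2 FPKM in sipiwi and siGFP. Its log2 ratio was 1.88 (interval 1.86 to 1.89), and 0.98 relative to genes of similar length. The translation elongation factors eEF1alpha1 and eEF2 followed with 2799 and 1569 FPKM under the siRpd3 label, against 1234 and 772 FPKM in siMi-2. eEF2 stood at 1356 FPKM in sipiwi and 1453 FPKM in siGFP, so that its siMi-2 value was the one apart. Arc1, a retrotransposon-derived gene whose protein forms capsids, had 1266 FPKM under the siRpd3 label, 505 FPKM in siMi-2, 824 FPKM in sipiwi and 1240 FPKM in siGFP, and was likewise lowest in siMi-2. The 5 most abundant of the lower genes were RpL41, RpL36, RpLP2, RpL39 and RpL23, all of the large ribosomal subunit. RpL41 had 5623 FPKM in the library labelled siRpd3 and 19870 FPKM in siMi-2, and 13775 and 19441 FPKM in sipiwi and siGFP, a log2 ratio of -1.82.

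Of 88 cytoplasmic ribosomal protein genes that passed the minimum, 53 were more than 2-fold lower and 2 higher in the library labelled siRpd3. The lower share was 60.2%, against 10.8% of all genes. The list median (log2) was -1.22, that is 1.75 below the median of all genes. It changed sign to 0.11 with the libraries scaled to RpL32, itself 1 of the ribosomal protein genes. They took 14.3% of mapped reads under the siRpd3 label and 31.2% in siMi-2. The transcripts are short, with a median of 645 nt, and relative to genes of similar length the median was still -0.80. The abundant RpS4 went the other way, with 2421 FPKM under the siRpd3 label and 1177 FPKM in siMi-2. So did the paralog RpS10a (28.2 against 10.2 FPKM). RpS5b, a paralog of RpS5a used in the ovary, was lowest of the list with 38.8 FPKM in the library labelled siRpd3, 671 FPKM in siMi-2, 162 FPKM in sipiwi and 180 FPKM in siGFP. Reads shared between such paralogs could have been split by the mapping. Ribosome biogenesis genes stood at the opposite side of the median. Of 21, 11 were more than 2-fold higher (52.4%, against 34.8% of all genes) and none lower. Their median was 1.33 (0.50 relative to length). Nopp140, a nucleolar chaperone for small nucleolar ribonucleoproteins, had 56.9 FPKM under the siRpd3 label and 8.67 FPKM in siMi-2. Polr1B, a subunit of RNA polymerase I, had 17.5 and 3.84 FPKM. Fib, the fibrillarin methyltransferase, had 204 FPKM under the siRpd3 label and 287 FPKM in siMi-2. Of 76 mitochondrial ribosomal protein genes, 8 were more than 2-fold higher (10.5%, against 34.8% of all genes) and 3 lower. Their median was -0.13, 0.66 below that of all genes, or 1.19 with scaling to RpL32, and 0.18 relative to length. The median length of this list was 739.5 nt, and 11.1% of all genes from 600 nt to below 1000 nt were higher.

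The subunits of dNuRD and dMec had positive ratios as deposited. Of 8, 4 were more than 2-fold higher (50%, against 34.8% of all genes) and none lower. The 4 include Mi-2, the siRNA target of the siMi-2 library, whose ratio follows from the design. The median length of the list was 3091.5 nt, and 64.7% of all genes from 3000 nt to below 5000 nt were higher. The median ratio of 1.0 became 0.24 relative to genes of similar length. On that scale 1 gene, Mi-2, was more than 2-fold higher and 1 was lower. Besides Mi-2, the genes higher as deposited were MEP-1, Caf1-55 and MTA1-like. MEP-1 had 79.5 FPKM under the siRpd3 label, against 27.0 FPKM in siMi-2, and 29.2 and 13.9 FPKM in sipiwi and siGFP. Its log2 ratio of 1.55 (interval 1.48 to 1.62) came to 0.04 relative to genes of its length. Caf1-55, the histone chaperone shared by several Rpd3 complexes, had 155 FPKM under the siRpd3 label and 73.9 FPKM in siMi-2. MTA1-like, a scaffold of the deacetylase core, had 24.5 and 9.35 FPKM. MBD-like, named for its methyl-DNA-binding domain, had 47.7 FPKM under the siRpd3 label and 26.9 FPKM in siMi-2, which was 0.89 relative to length. simj, the p66 subunit, was close to even with 24.5 and 21.8 FPKM and lay 1.35 below genes of its length. Its deposited ratio of 0.17 is smaller than the shift from scaling to the median gene or from leaving ribosomal protein reads out of the totals, so its sign is not fixed. The list median was 0.30 with scaling to the median gene.

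Among 16 other deacetylases and co-repressors, 7 were more than 2-fold higher (43.8%, against 34.8% of all genes) and 1 lower. The median length of the list was 3311.5 nt, and 64.7% of all genes from 3000 nt to below 5000 nt were higher. The list median of 0.70 (-0.39 relative to length) was at 0 with scaling to the median gene. The 2 highest encode partners of Rpd3. Sin3A, the scaffold of a separate Rpd3 complex, had 17.4 FPKM in the library labelled siRpd3 and 3.13 FPKM in siMi-2, a log2 ratio of 2.44 (0.74 relative). CoRest, which joins Rpd3 to a histone demethylase, had 168 FPKM under the siRpd3 label, 39.9 FPKM in siMi-2 and 42.7 FPKM in siGFP, a ratio of 2.07 (1.04 relative). The sirtuin Sirt4 was the lower one, with 16.9 and 40.7 FPKM. HDAC3, the deacetylase of the SMRTER complex, had 21.4 FPKM under the siRpd3 label and 27.5 FPKM in siMi-2. Of 8 histone acetyltransferases, which act against deacetylases, 5 were more than 2-fold higher (62.5%, against 34.8% of all genes) and none lower. Their median was 1.61 (0.38 relative to length). The median length of this list was 3158 nt, again in the class where 64.7% of all genes were higher. Relative to length, 0 were more than 2-fold higher and 1 was lower. Taf1 led with 17.1 and 3.5 FPKM, while Gcn5 had 61.7 FPKM under the siRpd3 label, against 89.8 FPKM in siMi-2, 141 FPKM in sipiwi and 121 FPKM in siGFP.

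Factors of Piwi silencing differed little as a group. Of 9, 3 were more than 2-fold higher (33.3%, against 34.8% of all genes) and none lower. Their median of 0.46 lay 0.08 below that of all genes and turned negative with scaling to the median gene. Su(var)2-10, a SUMO ligase that links Piwi to histone methylation, had 36.9 FPKM under the siRpd3 label, against 9.14 FPKM in siMi-2, and 9.27 and 7.11 FPKM in sipiwi and siGFP. The siRpd3-labelled value thus stood alone, with a log2 ratio of 2.0 (interval 1.84 to 2.16) and 1.11 relative to length. egg, the SetDB1 methyltransferase, had 33.2 FPKM under the siRpd3 label and 12.4 FPKM in siMi-2, but 0.02 relative to genes of its length. Panx, which couples Piwi to silencing, had 8.42 and 3.90 FPKM. Of 14 piRNA biogenesis factors, 4 were more than 2-fold higher (28.6%, against 34.8% of all genes) and none lower. Their median of 0.44 was -0.26 with scaling to the median gene and -0.05 relative to length. BoYb, a Tudor protein, had 8.69 and 2.26 FPKM, whereas its paralog fs(1)Yb, which organises piRNA processing in somatic cells, had 38.8 FPKM under the siRpd3 label and 51.2 FPKM in siMi-2 and lay 1.54 below genes of its length.

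TEs did not share the shift of long transcripts. Of 100 TEs, 9 (9.0%) were more than 2-fold higher and 18 (18.0%) more than 2-fold lower in the library labelled siRpd3. Their median ratio (log2) was -0.14, that is 0.67 below the median of all genes, and with the libraries scaled to RpL32 it became 1.01. For 50 TEs of at least 5000 nt the median was 0.02, against 1.64 for genes of that length. Relative to genes of similar length, the median TE stood at -1.39, with 67 more than 2-fold lower and none higher. The Spearman correlation of ratio and length over the 100 TEs was 0.26. The counting interval lay above 0 for 28 TEs, below 0 for 35 and reached 0 for 37.

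The highest TEs were mostly LTR retrotransposons. gypsy, an endogenous retrovirus of the ovarian soma, had 252 FPKM in the library labelled siRpd3 and 46.2 FPKM in siMi-2 (61539 and 12463 reads). Its level was 218 FPKM in sipiwi and 8.89 FPKM in siGFP, so that siMi-2 lay between the control and the others. The log2 ratio was 2.45 (interval 2.41 to 2.49), and 0.75 relative to genes of similar length. The LTR element 412 had 10.8 FPKM under the siRpd3 label and 2.05 FPKM in siMi-2, with 12.0 FPKM in sipiwi and 0.40 FPKM in siGFP, a ratio of 2.34 (interval 2.16 to 2.52). opus had 3.82 and 0.97 FPKM, a ratio of 1.87. All 3 ratios stayed positive relative to genes of similar length (0.75, 0.65 and 0.18). TART, which maintains telomeres, had 50.1 FPKM under the siRpd3 label and 15.0 FPKM in siMi-2, a ratio of 1.73 (0.03 relative). Its level was 33.9 FPKM in sipiwi and 28.6 FPKM in siGFP, so that siMi-2 was the lowest of the 4. springer, the second most abundant TE, had 2279 and 779 FPKM, a ratio of 1.55 that was -0.14 relative to length. 3S18 (30.9 and 10.1 FPKM) and flea (2.42 and 0.84 FPKM) likewise passed 2-fold, with relative ratios of -0.040 and -0.054. Tc3, a DNA transposon, had only 72 and 24 reads. Among the other TEs named, copia had 7300 FPKM under the siRpd3 label and 5959 FPKM in siMi-2 (0.29), mdg1 had 23.5 and 17.0 FPKM (0.46), and Tabor 5.5 and 4.13 FPKM (0.40). All 3 changed sign relative to genes of similar length and with scaling to the median gene. In sipiwi, mdg1 stood at 293 FPKM, above every other library.

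The lowest TEs were of several classes and mostly low in reads. The element Tom1 had 9 reads in the library labelled siRpd3 and 85 reads in siMi-2, a log2 ratio of -2.92 (interval -4.35 to -1.64). accord had 17 and 227 reads, a ratio of -2.48 (interval -2.90 to -1.95). Max-element stood on more reads, with 1.75 FPKM under the siRpd3 label and 6.75 FPKM in siMi-2 (489 and 2086 reads) and a ratio of -1.89 (interval -2.08 to -1.69). The DNA transposons transib1 and transib3 had ratios of -2.30 and -1.94, with 11 and 114 reads under the siRpd3 label, against 91 and 515 reads in siMi-2. The DNA transposons mariner2 and hobo and the LINE Rt1a had ratios between -1.41 and -1.40. TE reads made up 6.29% of mapped reads in the library labelled siRpd3, 4.38% in siMi-2, 4.42% in sipiwi and 2.49% in siGFP. Of the TE reads, copia made up 59.7% and springer 27.4% under the siRpd3 label, against 70.1% and 13.4% in siMi-2. The median TE had 1.76 FPKM under the siRpd3 label and 2.11 FPKM in siMi-2.

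**Figure D3:**
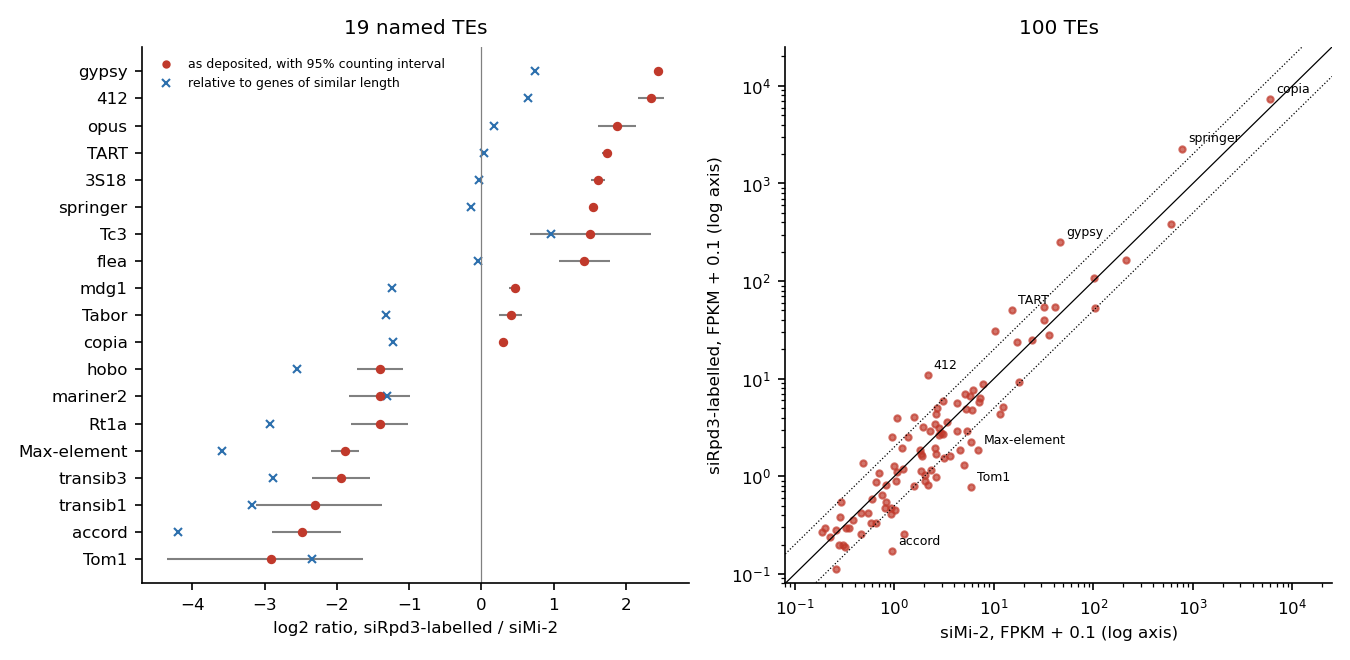
Left, log2 ratio of the library labelled siRpd3 over siMi-2 for 19 named TEs, with 95% counting intervals (grey) and the ratio relative to genes of similar length (crosses). Right, FPKM + 0.1 of 100 TEs in the library labelled siRpd3 (vertical) against siMi-2 (horizontal) on log axes, with the line of equality and dotted lines at 2-fold. As deposited, ratios run from 2.45 for gypsy to -2.92 for Tom1, whose 9 and 85 reads give a wide interval.

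Chromosome 4, a small chromosome that is largely heterochromatic, stood apart from the other chromosomes. Its 59 genes had a median log2 ratio of -0.24 (1.07 with scaling to RpL32), against medians from 0.34 on the X to 0.66 on 3L. Of the 59, 4 were more than 2-fold higher (6.78%, against 34.8% of all genes) and 16 lower (27.1%, against 10.8%). Relative to genes of similar length the median was -1.18, against -0.21 on the X and between -0.05 and 0.10 on the other arms. The difference held within length classes. From 2000 nt to below 5000 nt, 26 genes on chromosome 4 had a median of -0.25, and 2774 genes elsewhere had a median of 1.05. For at least 5000 nt the medians were 0.66 over 11 genes and 1.65 over 539 genes. The median level of chromosome 4 genes was 8.38 FPKM in the library labelled siRpd3, 9.21 FPKM in siMi-2, 3.62 FPKM in sipiwi and 4.06 FPKM in siGFP. The siMi-2 library held the highest of the 4 values for 34 of the 59 genes, against 1379 of 7808 genes elsewhere.

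Among the chromosome 4 genes with the lowest ratios, several were low outside siMi-2. yellow-h, of the yellow family, had 0.49 FPKM in the library labelled siRpd3 and 17.9 FPKM in siMi-2, with 0.52 and 0.69 FPKM in sipiwi and siGFP, a log2 ratio of -4.93 (interval -5.68 to -4.22). CG1674 had 0.23 and 6.35 FPKM and dpr7, a neuronal cell-surface protein of the immunoglobulin family, 0.49 and 5.70 FPKM. The kinesin Kif3C was expressed in all libraries, with 5.79 FPKM under the siRpd3 label, 43.2 FPKM in siMi-2, 12.6 FPKM in sipiwi and 20.01 FPKM in siGFP. Here the siRpd3-labelled value was the lowest and the siMi-2 value the highest of the 4. The highest ratio on the chromosome was that of lgs, a Wnt pathway co-activator, with 8.14 FPKM under the siRpd3 label and 2.40 FPKM in siMi-2 (1.72). These chromosome 4 genes, apart from CG31997, were named after their values were seen.

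**Figure D4:**
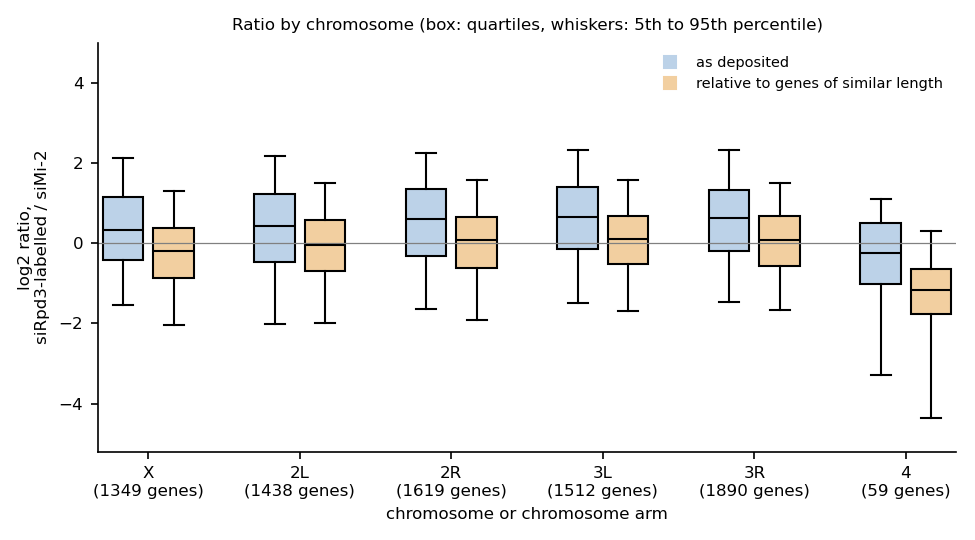
Log2 ratio of the library labelled siRpd3 over siMi-2 for the genes of each chromosome or arm, as deposited and set against the 200 genes closest in length (boxes show quartiles, whiskers the 5th and 95th percentiles). Chromosome 4 (59 genes) lies lowest, with medians of -0.24 and -1.18 (1.07 for the deposited values scaled to RpL32).

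Hsp70, the main inducible chaperone, was higher in the library labelled siRpd3. The summed level of its 6 copies was 1025 FPKM under the siRpd3 label and 143 FPKM in siMi-2. The copies are near-identical, so reads could be shared among them and their ratios are not separate measurements. Each copy was more than 2-fold higher, also relative to genes of similar length (median 1.75). The copy Hsp70Aa had 461 FPKM under the siRpd3 label, 62.4 FPKM in siMi-2, 11.9 FPKM in sipiwi and 9.37 FPKM in siGFP, so that both knockdown libraries lay above the control. Of 16 other heat shock genes, 7 were more than 2-fold higher (43.8%, against 34.8% of all genes), 1 was lower and 8 lay within 2-fold. stv, a co-chaperone of Hsp70, had 334 FPKM under the siRpd3 label and 28.3 FPKM in siMi-2, a log2 ratio of 3.55 (2.48 relative). The mitochondrial chaperonin Hsp60A had 791 FPKM under the siRpd3 label, against 1278 FPKM in siMi-2 and 1933 FPKM in siGFP. Of 13 endoplasmic reticulum stress genes, 4 were more than 2-fold higher (30.8%, against 34.8% of all genes), 1 was lower and 8 lay within 2-fold. The highest, the sensor kinase PEK of the unfolded protein response, had 49.3 and 12.8 FPKM. The lower one, the transcription factor Xbp1, had 404 FPKM under the siRpd3 label and 976 FPKM in siMi-2.

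Genes of Jun kinase signalling were mostly higher. Of 11, 9 were more than 2-fold higher in the library labelled siRpd3 (81.8%, against 34.8% of all genes) and none lower. Their median was 1.54 (0.65 relative to length), positive under each scaling. The median length of the list was 3194 nt, and 64.7% of all genes from 3000 nt to below 5000 nt were higher. Ets21C, a transcription factor downstream of the kinase, had 90.4 FPKM under the siRpd3 label, against 10.6 FPKM in siMi-2, and 9.83 and 10.7 FPKM in sipiwi and siGFP. Its log2 ratio was 3.09 (interval 2.97 to 3.21, relative 1.54). Mmp1, a secreted matrix metalloprotease, had 180 and 31.5 FPKM, with 8.34 FPKM in siGFP. Gadd45 had 54.0 FPKM under the siRpd3 label and 47.7 FPKM in siMi-2, and kay, the Fos subunit of AP-1, 70.1 and 40.8 FPKM. In the JAK/STAT pathway, with a median length of 3503 nt, 7 of 9 genes were higher (77.8%) and none lower (median 1.38, relative 0.21). Its ligand upd3 had 4.30 and 0.95 FPKM and its kinase hop 12.2 and 2.94 FPKM, while the transcription factor chinmo was even at 3.01 FPKM in both. In the Hippo pathway 7 of 14 genes were higher (50%) and none lower, with a relative median of 0.03. Its median length was 2698 nt, and 43.0% of all genes from 2000 nt to below 3000 nt were higher.

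Of 11 Toll and Imd genes of innate immunity, 7 were more than 2-fold higher in the library labelled siRpd3 (63.6%, against 34.8% of all genes). Of the rest, 1 was lower (9.09%, against 10.8%) and 3 lay within 2-fold. The list median was 1.20 (0.64 relative to length). The NF-kappaB factors dl and Rel had 57.3 and 26.8 FPKM under the siRpd3 label, and 16.2 and 8.19 FPKM in siMi-2. The secreted recognition protein PGRP-SA had 6.41 FPKM under the siRpd3 label, against 140 FPKM in siMi-2, and 1.22 and 2.29 FPKM in sipiwi and siGFP. It was thus high in siMi-2 alone, with a log2 ratio of -4.43 (interval -4.74 to -4.12).

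Extracellular matrix genes were split by kind. The list held 13 genes, of which 9 were more than 2-fold higher in the library labelled siRpd3 (69.2%, against 34.8% of all genes). Another 3 were lower (23.1%, against 10.8%). The median length of the list was 5649 nt, and 74.4% of all genes of at least 5000 nt were higher. Both collagen IV chains were among the lower genes. Col4a1 had 5.06 FPKM under the siRpd3 label, 97.8 FPKM in siMi-2, 1.98 FPKM in sipiwi and 2.2 FPKM in siGFP, and vkg had 3.67, 66.8, 1.0 and 1.55 FPKM in the same order. Their log2 ratios were -4.25 and -4.15. SPARC, a collagen-binding glycoprotein, was the third with 108 and 559 FPKM. All 3 were high in siMi-2. The laminin chain LanB1 had 69.3 FPKM under the siRpd3 label and 13.3 FPKM in siMi-2, and rhea, the talin that anchors integrins to actin, had 59.99 and 5.96 FPKM, a ratio of 3.31 (1.59 relative). Collagen IV is also made by hemocytes. Of the 5 hemocyte markers, Hml, NimC1 and eater had at most 2 reads, whereas srp (1355 and 274 reads) and Pxn (729 and 247 reads) were detected in the library labelled siRpd3 and in siMi-2, and their part in this result was not tested. Large cytoskeletal genes were higher in 10 of 11 cases (90.9%, against 34.8% of all genes and 74.4% of those of at least 5000 nt). Their median was 2.05 at a median length of 7561 nt, and became 0.38 relative to length. alpha-Spec, the spectrin chain, had 207 and 33.4 FPKM and Dhc64C, the dynein heavy chain, 18.2 and 2.30 FPKM.

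Adhesion molecules of the follicular epithelium also differed. Fas3 had 49.4 FPKM in the library labelled siRpd3, 4.51 FPKM in siMi-2, 9.12 FPKM in sipiwi and 1.57 FPKM in siGFP, a log2 ratio of 3.43 (interval 3.24 to 3.62). Fas2 had 32.6, 4.99, 10.9 and 1.17 FPKM in the same order. Both remained more than 2-fold higher relative to genes of similar length (2.49 and 1.23). The yolk protein gene Yp3 had 0.71 FPKM under the siRpd3 label and 4.23 FPKM in siMi-2. Of the 14 follicle and ovarian somatic genes that passed, 4 were higher (28.6%, against 34.8% of all genes) and 1 lower (7.14%, against 10.8%). Their median of 0.53 was -0.16 with scaling to the median gene.

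Of 12 glycolysis genes, 6 were more than 2-fold lower in the library labelled siRpd3 (50%, against 10.8% of all genes) and none higher. Their median of -1.06 (-1.17 relative to length) became 0.26 with scaling to RpL32. Gapdh2 had 429 FPKM under the siRpd3 label, against 1568 FPKM in siMi-2, and 1218 and 2555 FPKM in sipiwi and siGFP. Pglym78, a phosphoglycerate mutase, had 114 and 325 FPKM. Pgi, an early step of the pathway, was at 103 FPKM under the siRpd3 label and 56.5 FPKM in siMi-2. Ldh, which makes lactate, had 324 FPKM under the siRpd3 label, 734 FPKM in siMi-2, 1436 FPKM in sipiwi and 2632 FPKM in siGFP, so that both knockdown libraries lay below siGFP. Of 65 respiratory chain genes 10 were lower (15.4%, against 10.8% of all genes) and 2 higher. Their median was -0.42 (0.90 with scaling to RpL32) and their relative median -0.15. The median length of that list was 666 nt, and 19.7% of all genes from 600 nt to below 1000 nt were lower. Of 12 fatty acid synthesis genes 6 were higher (50%, against 34.8% of all genes) and none lower, with a relative median of -0.17. The median length of this list was 3747.5 nt, and 64.7% of all genes from 3000 nt to below 5000 nt were higher. FASN1, the fatty acid synthase, had 130 and 20.2 FPKM, a ratio of 2.68 (0.98 relative).

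**Figure D5:**
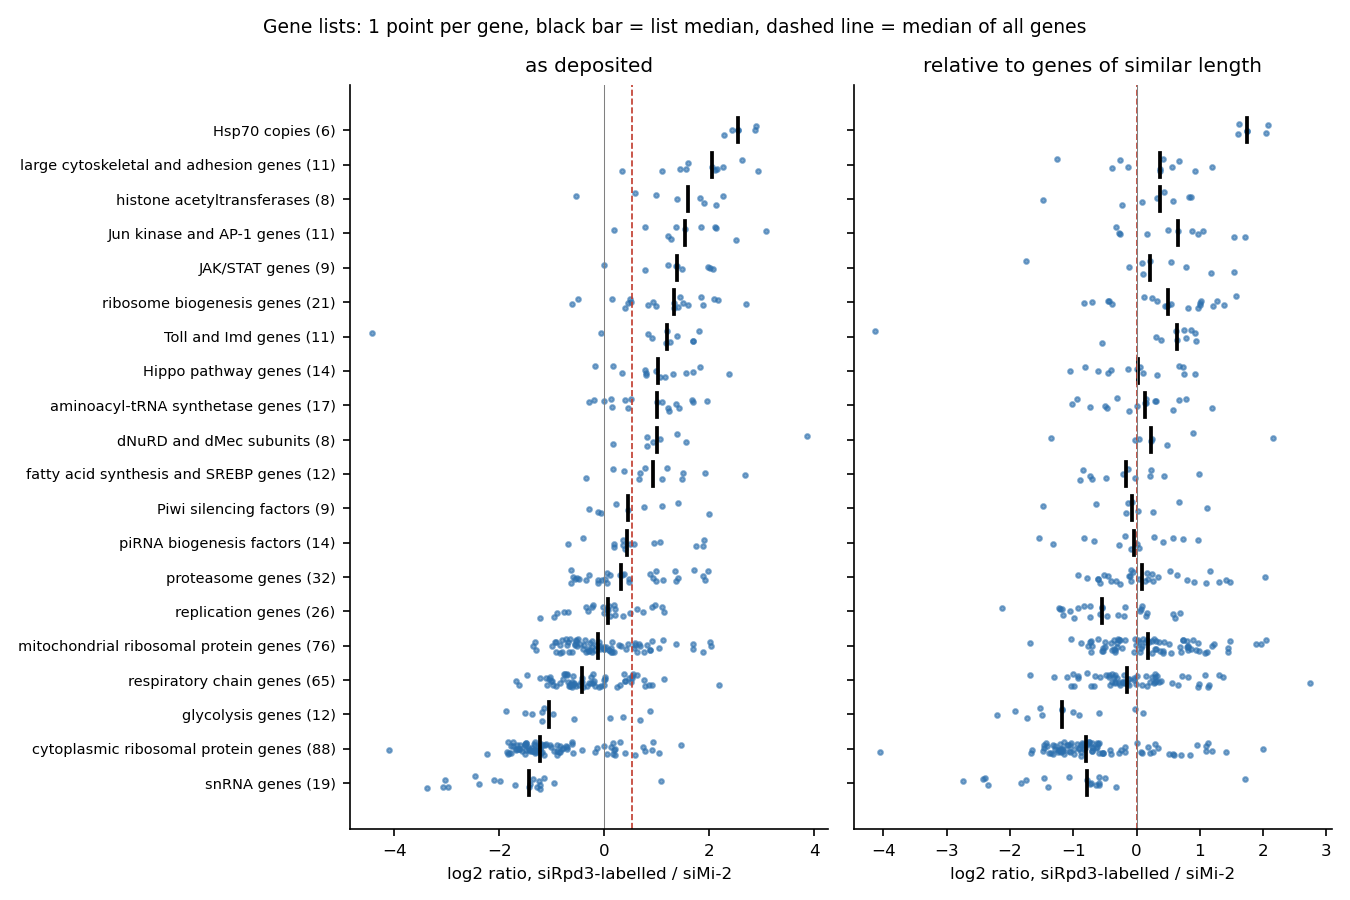
Log2 ratio of the library labelled siRpd3 over siMi-2 for the genes of 20 lists (genes that passed the minimum in parentheses), as deposited on the left and relative to genes of similar length on the right. Each point is 1 gene, black bars are list medians and the dashed line is the median of all genes. Hsp70 copies lie highest (median 2.55), and cytoplasmic ribosomal protein genes (-1.22, or 0.11 when scaled to RpL32) and snRNA genes (-1.42) lowest.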

How the data were processed

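According to the labels and the study's methods, 1 poly(A) library per siRNA was mapped with Bowtie2 2.2.4 to the dm6 genome and a transcriptome of genes and TEs. The authors calculated FPKM per transcript and TE and deposited these values, with no counts. Of 35327 transcript rows, 98.9% matched RefSeq accessions (Release 6), which gave symbols and coordinates. For rows above 0 (28510 transcripts, 115 TEs), whole reads and lengths were recovered from steps in FPKM. Low read numbers (1 to 20) were even in 73.9% (siRpd3) and 72.7% (siMi-2) of cases, so intervals used read pairs and the floor was 3 pairs. Reads on transcripts and TEs summed to 100.01% of mapped reads in both libraries. Relative ratios subtract the median of the 200 genes nearest in length, length being that of a gene's most highly expressed transcript. No count test was run. The sources used here state no strand in counting, so antisense partners cannot be told apart.

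The comparison and the gene lists were chosen with earlier results of these data known, and lists are described by counts and medians only. Named were HDAC1, Mi-2 and piwi, the 10 highest and 10 lowest genes, the 5 highest and 5 lowest relative to length, the 5 most abundant in each direction, the 2 highest and 2 lowest of each list described (others of a list and chromosome 4 genes were chosen after their values were seen), the 8 highest and 8 lowest TEs, and copia, gypsy, mdg1 and Tabor. Alternatives were pseudocounts, minimum values, thresholds, scalings, the top transcript in place of the sum and the relative ratio. Scripts were tested on simulated data. Computation used scipy 1.17.1 and numpy 2.4.6 in Python 3.11.15, with tables read by pandas 2.3.3 and plots drawn by matplotlib 3.10.9.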

Additional observations from a re-analysis of the deposited data

How the results depend on the processing

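The transcript length trend kept its direction throughout, with a Spearman correlation of 0.40 at a minimum of 0.1 FPKM as its lowest value. The ratio of HDAC1 stayed positive under all 10 of its alternatives, at 0.22 with scaling to the median gene, 2.25 with scaling to RpL32, 0.61 with totals without ribosomal protein genes and 0.23 relative to genes of similar length. The median ratio of genes was 0.49 with a pseudocount of 1 FPKM, 0.48 at a minimum of 5 FPKM, -0.16 with the median gene, 1.85 with RpL32, 0.22 with totals without ribosomal protein genes and 0.0048 relative to length. The corresponding TE medians were -0.75, 1.01, -0.40 and -1.39 with the last 4 settings. Genes more than 2-fold higher numbered 1112 with the median gene, 5942 with RpL32 and 991 relative to length, and 637 passed 4-fold. Genes more than 2-fold lower numbered 1304 at a minimum of 0.1 FPKM, 571 at 5 FPKM, 2020 with the median gene and 237 with RpL32. At 1.5-fold there were 1468, and at 4-fold 299. TEs more than 2-fold higher numbered 4 with the median gene, 51 with RpL32 and 0 relative to length, with 18 at 1.5-fold and 2 at 4-fold. TEs more than 2-fold lower numbered 6 with a pseudocount of 1 FPKM, 39 with the median gene, 3 with RpL32, 30 with totals without ribosomal protein genes and 67 relative to length, with 34 at 1.5-fold and 3 at 4-fold. The chromosome 4 median, chosen after seeing the data, was -0.93 with the median gene and -1.18 relative to length. Relative to length, 3S18 (-0.040), springer (-0.14) and flea (-0.054) changed sign. Scaling shifts all ratios by construction, and the cause of the other changes was not tested. No paired analysis was possible because each condition has 1 library. Values rest on single libraries, FPKM share one total, and TEs with few reads such as Tom1 and accord have wide intervals.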

Other observations

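Non-coding and histone transcripts gave further differences. The snRNA genes encode the RNA of the spliceosome, which mostly lacks a poly(A) tail. Of 19 that passed the minimum, 17 were more than 2-fold lower and 1 higher in the library labelled siRpd3. The lower share was 89.5%, against 10.8% of all genes and 35.5% of those below 600 nt. The list median was -1.42 (-0.79 relative to length). The copy snRNA:U2:34ABb had 57 reads under the siRpd3 label and 533 reads in siMi-2. Copies of the histone gene repeat were lower in 52 of 70 cases (74.3%) and higher in none (median -1.56, relative -1.03). These copies are near-identical and low, and together held 0.0058% of reads under the siRpd3 label and 0.0168% in siMi-2. The variant gene His4r, whose transcripts are polyadenylated, had 539 and 1774 FPKM. snoRNA genes, equally short, had a median of -0.27 (1.01 with scaling to RpL32), with 9 of 50 higher (18%) and 11 lower (22%). Among 277 lncRNA and antisense RNA genes, 61 were higher (22.0%, against 34.8% of all genes) and 53 lower (19.1%, against 10.8%). Their median length was 776 nt. Of all genes from 600 nt to below 1000 nt, 11.1% were higher and 19.7% lower.

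Apoptosis genes held some of the larger single differences of either sign. The cell death inducer hid had 10.2 FPKM in the library labelled siRpd3, 0.99 FPKM in siMi-2, 1.32 FPKM in sipiwi and 0.19 FPKM in siGFP, a log2 ratio of 3.24 (interval 2.86 to 3.64). Buffy, of the Bcl-2 family, had 0.53, 20.5, 0.51 and 3.94 FPKM in the same order, a ratio of -5.03 (interval -5.92 to -4.20), and its relative Debcl had 16.8 and 54.6 FPKM. Of 14 genes on the list, 4 were higher (28.6%, against 34.8% of all genes) and 2 lower (14.3%, against 10.8%). Of 26 DNA replication genes, 2 were higher (7.69%) and 1 lower (3.85%). Their median was 0.077 (-0.62 with scaling to the median gene), with a relative median of -0.55. The helicase subunit Mcm3 had 51.9 FPKM under the siRpd3 label, against 121 FPKM in siMi-2, 125 FPKM in sipiwi and 124 FPKM in siGFP. The metal-binding MtnA had 85.5 and 479 FPKM, and 569 FPKM in siGFP. The neuronal vesicle fusion gene cpx had 0.31 FPKM under the siRpd3 label and 4.44 FPKM in siMi-2. No explanation was tested for these values.

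Further lists are set beside the 34.8% of all genes that were more than 2-fold higher. Of 17 aminoacyl-tRNA synthetase genes, 8 were more than 2-fold higher in the library labelled siRpd3 (47.1%) and none lower (median 1.0, relative 0.13). Their median length was 2298 nt, and 43.0% of all genes from 2000 nt to below 3000 nt were higher. LeuRS had 48.5 FPKM under the siRpd3 label and 12.4 FPKM in siMi-2. Of 32 proteasome genes, 8 were higher (25%, against 34.8% of all genes) and none lower. The list median was 0.32 (-0.39 with scaling to the median gene). The median length of that list was 1274 nt, and 24.5% of all genes from 1000 nt to below 2000 nt were higher. Rpn1, a subunit of the regulatory particle, had 144 and 36.8 FPKM. Of 29 translation initiation and elongation factor genes, 12 were higher (41.4%) and none lower, at a median of 0.51 (-0.20 with scaling to the median gene), and eIF1 had 436 FPKM under the siRpd3 label and 814 FPKM in siMi-2. Of 12 Notch pathway genes, 7 were higher (58.3%) and none lower (median 1.10, relative -0.31). Their median length was 3472.5 nt, and 64.7% of all genes from 3000 nt to below 5000 nt were higher. The ubiquitin ligase mib1 had 52.4 FPKM under the siRpd3 label and 12.0 FPKM in siMi-2, and the target E(spl)m3-HLH had 66.5 and 118 FPKM. Of 14 ecdysone response genes, 4 were higher (28.6%) and 2 lower (14.3%, against 10.8% of all genes). The nuclear receptor Eip75B had 4.66 FPKM under the siRpd3 label and 1.08 FPKM in siMi-2, whereas ImpL2, a secreted insulin-binding protein, had 21.9 and 81.5 FPKM.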
